A study of Oryza sativa with 15 samples.

Results

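The genes described here are LEA3-1, LEA3-2, Emp1 and WSI18, which encode late embryogenesis abundant (LEA) proteins of rice (Oryza sativa). They were chosen by name as a family, as were the lists set beside them, with earlier results of these data known. Their identifiers are LOC_Os05g46480.MSUv7.0, LOC_Os03g20680.MSUv7.0, LOC_Os05g28210.MSUv7.0 and LOC_Os01g50910.MSUv7.0, and all 4 were present among the 24073 genes of the count table. The locus numbers place LEA3-1 and Emp1 on chromosome 5, LEA3-2 on chromosome 3 and WSI18 on chromosome 1. A RefSeq gene table of the japonica genome lists LEA3-1, LEA3-2 and Emp1 on those chromosomes, and WSI18 is a working name that this table does not pair with a gene. All 4 passed the filter on low counts that kept 20462 genes for testing.

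The study grew shoots of the japonica cultivar Nipponbare in 5 groups of 3 and sequenced their mRNA, 15 libraries in all. Severe drought soil held 1.25 g of water per g and mild drought soil 1.5 g per g. Shoots of the 2 heat groups spent 30 or 60 min in a chamber at 40 °C, in pots of the wet soil of the control. The wet control soil held 3 g of water per g, and this group, like both drought groups, saw no heat. All groups had seeds germinated for 3 days, 7 plants to a pot, 10 days of growth at 30 °C by day and 27 °C by night with 90% humidity and 12 h of light, and harvest of whole shoots 6 h after dawn. No label ties the samples of a group to different pots, and the p-values therefore describe how these samples vary, some of which may be technical.

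LEA proteins are small, hydrophilic proteins that accumulate in seeds as they dry and in leaves and roots that lose water. They are thought to shield other proteins and membranes while water is withdrawn. The hormone abscisic acid (ABA) is the best known inducer of their genes: bZIP factors bind ABA-responsive elements in the promoters, and in rice the bZIP factor TRAB1 works with the seed regulator VP1 on the Emp1 promoter. LEA3-1 and WSI18 belong to the group 3 LEA proteins, and WSI18 was named as a gene induced by water stress. LEA3-2 has been studied as a gene for stress tolerance. Emp1 encodes the Em protein, a group 1 LEA protein typical of the mature embryo. IDEF1, a rice regulator of the iron deficiency response with the same type of DNA-binding domain as VP1, is also known to induce LEA genes in vegetative tissue.

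Library totals ranged from 49479059 to 77969214 counts. Levels below are CPM (counts scaled to a common library total after TMM scaling, a correction for differences in library composition), and a value of 3 counts, used as the detection floor, came to between 0.0350 and 0.0698 CPM per library. TMM factors lay between 0.622 and 0.706 in the 30 min heat group and between 0.999 and 1.32 elsewhere, and scaling by total counts alone would shift the median gene by -0.88 log2 at 30 min against the wet control and by 0.76 log2 between the heat times. The shift was -0.15 log2 in severe drought, -0.16 in mild drought and -0.12 at 60 min, each against the wet control. The heat labels matched the data: HSP101, a chaperone gene that heat switches on, averaged 19917 ± 215 CPM after 30 min of heat and 1646 ± 116 CPM after 60 min, against 2.63 ± 1.81 CPM in the wet control (SD, n = 3 each). The leaf genes CAB1R and CAB2R, for light-harvesting proteins, summed to between 18937 and 39590 CPM in every library. Of the markers of other organs, the root silicon channel genes LSI1 and LSI2 summed to 11.5 to 33.2 CPM with LSI2 at 0 throughout, and the seed genes OLE18, GLUA1 and GLUA2 summed to 1.67 to 3.17 CPM.

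The drought and wet control libraries did not all stand with their own group. By chi-square per gene, severe drought replicate 1 was nearest to mild drought replicate 1 (32.1), against at least 152 to its own group, and mild drought replicate 3 was nearest to severe drought replicate 3 (76.8), against at least 196 to its own group. Their nearest libraries were the same by root mean square difference of log2 CPM (0.73 for each, against at least 0.90 and 1.06 within the group). Some other libraries were also nearest to a library of another group. By chi-square, mild drought replicates 1 and 2 were nearest to severe drought replicate 1 (32.1 and 36.3, against 48.0 between them). Wet control replicate 2 was nearest to mild drought replicate 1 (139, against at least 161). By log2 CPM, severe drought replicate 3 was nearest to mild drought replicate 3, and wet control replicate 3 to severe drought replicate 2. Drought results are also given with severe drought replicate 1 and mild drought replicate 3 left out together. That fit was chosen after the data were seen.

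**Figure D1:**
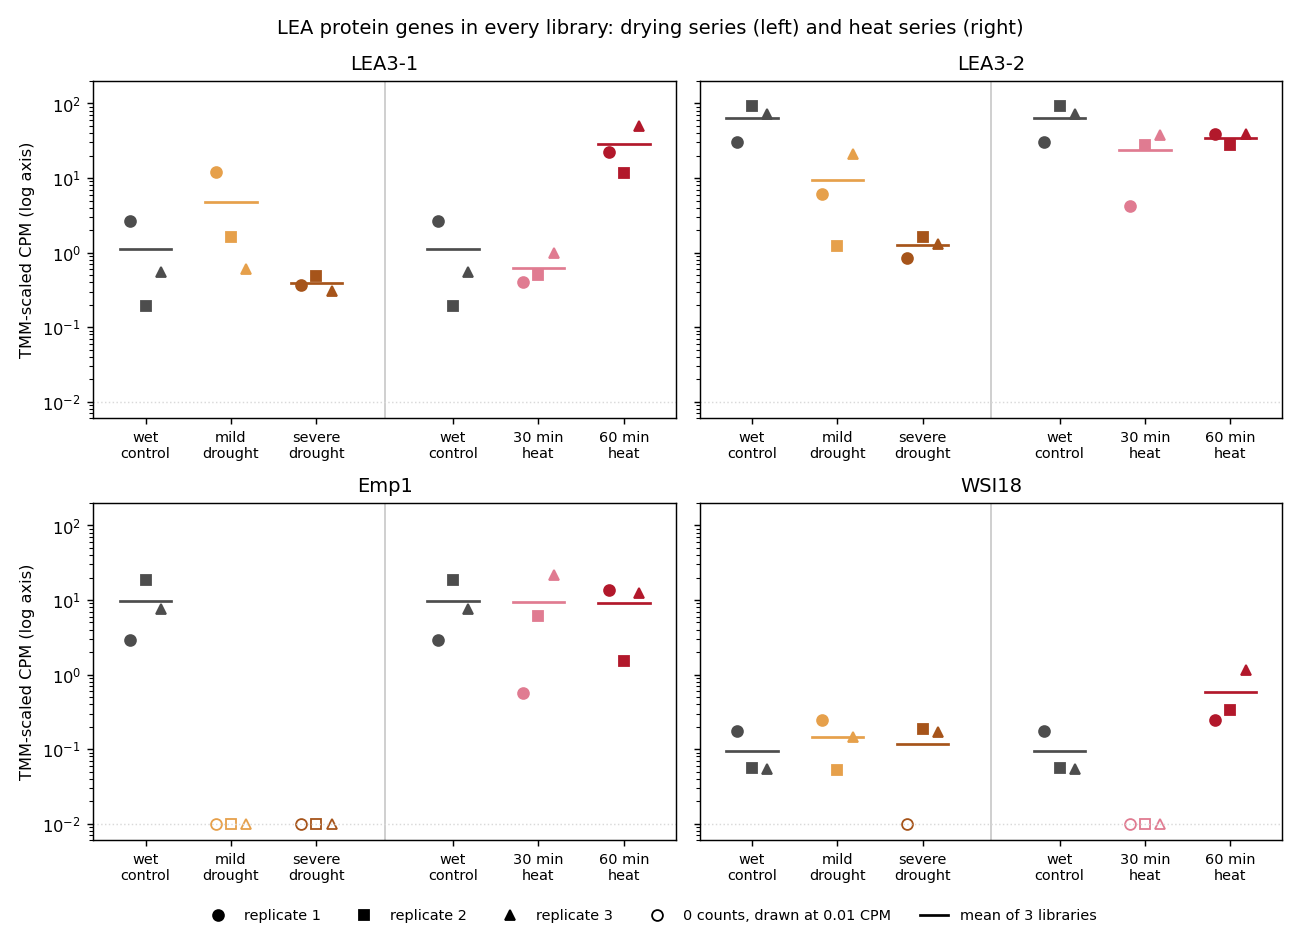
TMM-scaled CPM of each LEA protein gene in each library on a log axis, for the drying series (left of the grey line) and the heat series (right, with the wet control repeated). Filled symbols are single libraries, shaped by replicate number, open symbols are libraries with 0 counts drawn at 0.01 CPM, and lines are group means; Emp1 has 0 counts in all 6 drought libraries and LEA3-1 in the 3 libraries of 60 min heat (11.8 to 50.7 CPM) stands above every wet control library.

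LEA3-2 and Emp1 were lower in every drought library than in any wet control library. Here and below, such separation of single libraries is a description, as its share over all genes was not counted. LEA3-2 had 0.845, 1.64 and 1.30 CPM in the 3 severe drought libraries and 6.17, 1.22 and 21.0 CPM in mild drought, against 30.4, 92.3 and 71.6 CPM in the wet control. The 3 severe drought libraries lay close together, and the mild drought libraries differed 17.2-fold among themselves. In whole shoots, fewer cells of a type and less RNA per cell cannot be told apart. LEA3-2 fell in severe drought against the wet control, with a log2 fold change of -5.67 ± 1.02 (SE) and an adjusted p of 0.0115 (quasi-likelihood test of edgeR, adjusted by Benjamini-Hochberg over all genes tested; every adjusted p below is by this test). In mild drought its change of -2.77 ± 0.88 was not past the threshold of 0.05 (adjusted p = 0.11, edgeR). The difference between severe and mild drought was -2.90 ± 0.91 (adjusted p = 1, edgeR). Without severe drought replicate 1 or 3 the severe drought call was lost (adjusted p = 0.0575 and 0.0657, edgeR), and without mild drought replicate 3, the highest of its group, LEA3-2 passed the threshold in mild drought too (-4.14, adjusted p = 0.0355, edgeR). With severe drought replicate 1 and mild drought replicate 3 both left out, LEA3-2 was at -5.46 in severe drought and -4.14 in mild drought, both past the threshold (adjusted p = 0.0286 and 0.0317, edgeR), and at -1.31 between the droughts (adjusted p = 0.446, edgeR).

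Emp1 was counted in every wet control library and in no drought library. It had 0 counts in all 3 severe drought and all 3 mild drought libraries, against 233, 1332 and 569 counts, or 2.90, 18.4 and 7.66 CPM, in the wet control. With 3 counts over a drought group as the floor, Emp1 was at least 574-fold lower in severe drought and at least 605-fold lower in mild drought than in the wet control; these bounds cover counting error only. The call in severe drought was near the threshold (adjusted p = 0.0403, edgeR) and that in mild drought just missed it (adjusted p = 0.0531, edgeR). In severe drought the adjusted p lay between 0.0573 and 0.125 whichever library was left out, so the call rested on all 6. In mild drought Emp1 passed without wet control replicate 2 (adjusted p = 0.0482, edgeR), where the bound was 334, and leaving out replicate 2 or 3 of mild drought gave bounds of 370 and 391. In severe drought the bound was 317 when wet control replicate 2 was left out and 357 when severe drought replicate 2 was. With severe drought replicate 1 and mild drought replicate 3 both left out, Emp1 passed in mild drought (adjusted p = 0.0431, edgeR) and not in severe drought (adjusted p = 0.0954, edgeR).

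The wet control is shared by both drought comparisons, so the 2 levels were also averaged and set against it in 1 contrast. LEA3-2 averaged 5.36 CPM over the 6 drought libraries and 64.8 CPM over the 3 wet control libraries, and fell by 4.22 ± 0.72 on the log2 scale (adjusted p = 0.00673, edgeR). Emp1 was at least 1180-fold lower over the 6 drought libraries (adjusted p = 0.00876, edgeR), and the bound was 650 when wet control replicate 2 was left out. Both genes passed the threshold in this contrast whichever of the 9 libraries was left out, with adjusted p from 0.0032 to 0.0243 for LEA3-2 and from 0.0132 to 0.0252 for Emp1 (edgeR). They also passed with severe drought replicate 1 and mild drought replicate 3 both left out (adjusted p = 0.00755 for LEA3-2 and 0.0207 for Emp1, edgeR). In this contrast 2 of the 4 genes were lower and 0 higher, where 3.8% of all tested genes were lower and 3.02% higher past the threshold, 6.82% together. In severe drought alone 2 of the 4 were lower and 0 higher, where 1.05% of all genes were lower and 1.64% higher, 2.69% together. In mild drought 0 of the 4 passed by edgeR, where 0.528% of all genes were lower and 0.909% higher, 1.44% together. There, 2 of the 4 and 4498 of the 20462 genes tested were at an unadjusted p under 0.05 by edgeR. By DESeq2, 2 of the 4 and 2284 genes in all were past the threshold in mild drought. Between severe and mild drought 0 of the 4 and 0% of all genes passed by edgeR (2 and 569 at an unadjusted p under 0.05, and 0 and 44 past the threshold by DESeq2). With those 2 libraries left out, 0 of the 4 and 107 genes in all passed between the droughts by edgeR.

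Markers of plant parts did not pass the threshold in severe or mild drought, with adjusted p of 0.368 and 0.19 for LSI1, 0.227 and 0.219 for CAB1R, 0.393 and 0.516 for CAB2R and 0.282 and 0.264 for GLUA2 (edgeR). The summed level of the root genes LSI1 and LSI2 was 15.3 to 29.4 CPM in severe drought and 21.1 to 33.2 CPM in mild drought, against 11.5 to 18.9 CPM in the wet control, all of it from LSI1. The leaf genes CAB1R and CAB2R summed to 33045 to 39590 CPM in severe drought and 27956 to 37083 CPM in mild drought, against 20865 to 31929 CPM in the wet control. The seed genes OLE18, GLUA1 and GLUA2 summed to 2.44 to 3.17 CPM in severe drought and 2.57 to 2.99 CPM in mild drought, against 1.92 to 2.37 CPM in the wet control, nearly all of it from GLUA2. Only the root sum in mild drought, the leaf sum in severe drought and the seed sum at both levels did not overlap with the wet control. The part of these plant parts in the levels of LEA3-2 and Emp1 was not tested.

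LEA3-1 and WSI18 did not pass the threshold in drought. LEA3-1 had 0.367, 0.490 and 0.303 CPM in severe drought and 12.1, 1.64 and 0.598 CPM in mild drought, against 2.66, 0.194 and 0.552 CPM in the wet control. Replicate 1 stood above the other libraries in mild drought and in the wet control, and both drought groups overlapped with the wet control. The log2 fold change of LEA3-1 was -1.55 ± 1.09 in severe drought (adjusted p = 0.462, edgeR) and 2.06 ± 1.04 in mild drought (adjusted p = 0.263, edgeR). Its sign depended on single libraries: it was -0.024 in mild drought without mild drought replicate 1, and 0.068 in severe drought without wet control replicate 1. Over both droughts it was 0.25 ± 0.91 (adjusted p = 0.887, edgeR), and -0.028 with libraries scaled by total counts alone. All 3 severe drought libraries lay under all 3 mild drought libraries for LEA3-1, a difference of -3.60 ± 1.13 that did not pass the threshold (adjusted p = 1, edgeR; 0.137 with severe drought replicate 1 and mild drought replicate 3 left out).

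WSI18 was close to the detection floor outside the longer heat treatment. It had 0, 13 and 10 counts in severe drought and 12, 4 and 10 counts in mild drought, against 14, 4 and 4 counts in the wet control. The groups overlapped, with log2 fold changes of 0.33 ± 1.07 in severe and 0.60 ± 1.07 in mild drought (adjusted p = 0.901 and 0.773, edgeR), and of 0.47 ± 0.94 over both (adjusted p = 0.786, edgeR).

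**Figure D2:**
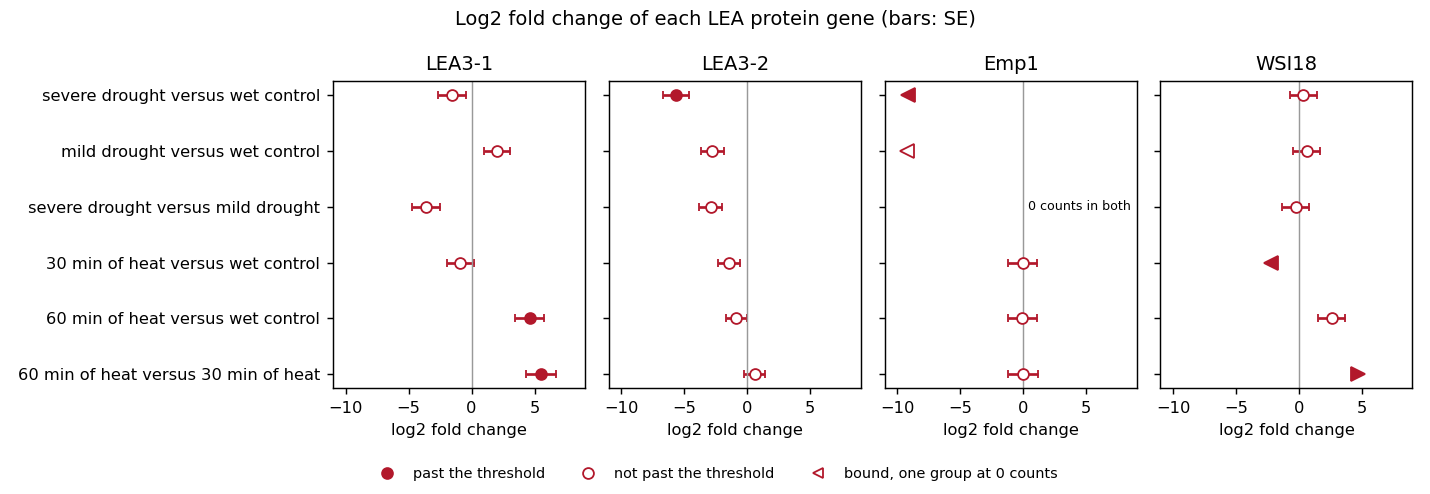
Log2 fold change of each LEA protein gene in 6 comparisons, with bars for the SE and filled symbols past the threshold on the adjusted p. Triangles are bounds from 3 counts over a group where 1 group had 0 counts; LEA3-2 at -5.67 and Emp1 lie to the left in severe drought, and LEA3-1 lies to the right at 60 min of heat.

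After 60 min of heat LEA3-1 was high, and after 30 min it was not. It had 22.6, 11.8 and 50.7 CPM after 60 min of heat, against 2.66, 0.194 and 0.552 CPM in the wet control. The lowest of the 60 min libraries stood above the highest wet control library, and LEA3-1 rose by 4.63 ± 1.14 on the log2 scale (adjusted p = 0.00827, edgeR). After 30 min it had 0.40, 0.495 and 0.977 CPM, within the range of the wet control (-0.88 ± 1.07, adjusted p = 0.546, edgeR). Between 60 and 30 min of heat the rise was 5.51 ± 1.21 (adjusted p = 0.00606, edgeR). LEA3-1 stayed past the threshold in both comparisons whichever library was left out, with adjusted p up to 0.0372 against the wet control and up to 0.0326 against 30 min (edgeR).

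WSI18 was likewise highest after 60 min of heat, on few counts. It had 19, 29 and 76 counts after 60 min of heat, against 0 counts in all 3 libraries of 30 min. With 3 counts over the 30 min group as the floor, WSI18 was at least 25.6-fold higher after 60 min than after 30 min (adjusted p = 0.00836, edgeR), and at least 13.9-fold higher without 60 min heat replicate 3. Leaving out 30 min heat replicate 1 gave a bound of 16.5 and leaving out replicate 2 a bound of 16.8. Against the wet control, all 3 libraries of 60 min were higher (0.248, 0.338 and 1.15 CPM against 0.174, 0.0554 and 0.0538 CPM), but the change of 2.58 ± 1.06 missed the threshold (adjusted p = 0.0876, edgeR). After 30 min WSI18 was at least 4.57-fold lower than in the wet control (adjusted p = 0.0427, edgeR), from 22 counts in all over the wet control. That call was lost in 4 of the 6 fits without 1 library, with adjusted p up to 0.106 and a bound of 2.57 without wet control replicate 1, and bounds of 2.95 and 3.00 without 30 min replicates 1 and 2.

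Emp1 and LEA3-2, which were low in drought, did not pass the threshold in any heat comparison. Emp1 had 0.560, 6.13 and 21.3 CPM after 30 min of heat and 13.5, 1.54 and 12.6 CPM after 60 min, against 2.90, 18.4 and 7.66 CPM in the wet control. The 3 groups overlapped, and the libraries of 30 min differed 38.1-fold among themselves. The log2 fold changes were -0.050 ± 1.17 at 30 min and -0.073 ± 1.17 at 60 min (adjusted p = 0.979 and 0.968, edgeR). Between 60 and 30 min it was -0.023 ± 1.17 (adjusted p = 0.992, edgeR). With SE of this size, changes of several-fold in either direction could not be told from the spread. LEA3-2 had 4.26, 28.0 and 38.2 CPM after 30 min and 38.5, 27.8 and 38.5 CPM after 60 min, against 30.4, 92.3 and 71.6 CPM in the wet control. Its log2 fold change was -1.46 ± 0.84 at 30 min (adjusted p = 0.19, edgeR) and -0.89 ± 0.83 at 60 min (adjusted p = 0.432, edgeR), and 0.57 ± 0.83 between 60 and 30 min (adjusted p = 0.657, edgeR). With libraries scaled by total counts alone the 30 min value was -2.34 and past the threshold (adjusted p = 0.0275, edgeR). That scaling shifted the median gene by -0.88 log2 at 30 min and called 12475 genes lower there. Replicate 1 of the 30 min group was the lowest of its group for LEA3-1, LEA3-2 and Emp1.

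Set against all genes, 1 of the 4 rose and 0 fell at 60 min against the wet control, where 16.2% of all tested genes were higher and 15.8% lower, 32% together. At 30 min 1 fell and 0 rose, where 19.6% were lower and 19.3% higher, 38.9% together. Between 60 and 30 min of heat 2 rose and 0 fell, where 10.4% were higher and 13.9% lower, 24.3% together. The comparisons at 30 and 60 min share the wet control with the drought comparisons. The leaf genes summed to 29333 to 36934 CPM at 30 min and 18937 to 21904 CPM at 60 min, the root genes to 18.9 to 26.3 and 14.8 to 20.3 CPM, and the seed genes to 1.67 to 2.34 and 2.37 to 2.84 CPM. Among the single markers, CAB2R was lower at 60 min than in the wet control (-0.77 ± 0.24, adjusted p = 0.0248, edgeR). It was also lower at 60 than at 30 min (-1.06 ± 0.24, adjusted p = 0.00663, edgeR). LSI1, CAB1R and GLUA2 did not pass the threshold in any heat comparison. The part of these markers in the heat results was not tested.

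The order of the 5 groups differed from gene to gene. For LEA3-2 the group means, lowest first, were 1.26 ± 0.401 CPM in severe drought, 9.47 ± 10.3 in mild drought, 23.5 ± 17.4 at 30 min of heat, 34.9 ± 6.17 at 60 min and 64.8 ± 31.5 in the wet control (SD, n = 3 each). Neither heat time differed from the wet control past the threshold, nor the heat times or the drought levels from each other, and the mild drought and 30 min libraries overlapped. For Emp1, both drought groups were at 0 counts, and the means of the others were 9.19 ± 6.64 CPM at 60 min of heat, 9.34 ± 10.8 at 30 min and 9.66 ± 7.96 in the wet control. For LEA3-1 they were 0.387 ± 0.0952 CPM in severe drought, 0.624 ± 0.309 at 30 min of heat, 1.14 ± 1.33 in the wet control, 4.77 ± 6.35 in mild drought and 28.3 ± 20.1 at 60 min of heat. Of these neighbours, 30 min of heat and mild drought did not differ from the wet control past the threshold, and the pairs not compared in the fit, severe drought with 30 min of heat and mild drought with 60 min, overlapped in range. For WSI18, 30 min of heat was at 0 counts, followed by 0.0944 ± 0.0690 CPM in the wet control, 0.119 ± 0.103 in severe drought, 0.147 ± 0.0948 in mild drought and 0.579 ± 0.497 at 60 min of heat. Here the 3 middle groups overlapped.

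Across single libraries the genes were alike in pairs. LEA3-2 and Emp1 had a Pearson correlation of 0.85 over the 15 libraries (log2 CPM with a prior count of 1), and LEA3-1 and WSI18 one of 0.69. LEA3-1 had one of 0.27 with LEA3-2 and 0.24 with Emp1. The same library was the highest of its group for LEA3-1 and WSI18 in all 4 groups where both had counts, and for LEA3-2 and Emp1 in all 3 such groups. Some of these ranks were near ties. LEA3-2 had 38.51 and 38.49 CPM in replicates 1 and 3 of 60 min heat. WSI18 had 13 and 10 counts in severe drought replicates 2 and 3, and 12 and 10 counts in mild drought replicates 1 and 3. The correlations and ranks describe libraries that share groups and depth, and no test was made of them.

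The other genes whose log2 CPM was most like that of each member over the 15 libraries were named by rule, 5 for each. For LEA3-1 they were led by LOC_Os06g46740.MSUv7.0 (r = 0.98) and the dehydrin gene RAB16A (r = 0.93). RAB16A had 2.81 to 12.2 CPM after 60 min of heat, against 0.0830 to 0.472 CPM in the wet control, and a single mild drought library, replicate 1, stood at 10.7 CPM, the library in which LEA3-1 was also highest of its group. The other 3 were LOC_Os03g17790.MSUv7.0, LOC_Os08g02030.MSUv7.0 and LOC_Os04g41229.MSUv7.0, with r of 0.89 to 0.92.

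For Emp1 the most alike genes were LOC_Os06g19110.MSUv7.0 (r = 0.98), YSL2, which encodes a transporter of iron bound to nicotianamine (r = 0.98), LOC_Os10g40550.MSUv7.0 (r = 0.97), LOC_Os06g19095.MSUv7.0 (r = 0.96) and NAS1, a nicotianamine synthase gene (r = 0.96) whose reads may be shared with its similar neighbour NAS2. YSL2 had 0.991 to 1.64 CPM in severe drought and 0.944 to 1.92 CPM in mild drought, against 22.8 to 84.1 CPM in the wet control. Like Emp1, 4 of these 5 genes, chosen for their likeness over these libraries, were lowest in replicate 1 within the 30 min group, and all 5 were lowest in replicate 2 within the 60 min group. NAS1 was the exception, at 7.55 CPM in replicate 2 and 7.90 CPM in replicate 1 of the 30 min group. For LEA3-2 they were IRT2, an iron transporter gene (r = 0.95), LOC_Os10g07380.MSUv7.0, LOC_Os03g54000.MSUv7.0, LOC_Os07g04930.MSUv7.0 and LOC_Os03g08310.MSUv7.0, with r of 0.94 to 0.95. For WSI18 the r values were 0.86 to 0.90, led by LOC_Os11g41870.MSUv7.0, itself at 0 counts in all 3 libraries of 30 min heat, and followed by LOC_Os06g41110.MSUv7.0, LOC_Os05g48930.MSUv7.0, LOC_Os06g45140.MSUv7.0 and LOC_Os05g49900.MSUv7.0. Counts of WSI18 were too few to read its likeness closely.

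**Figure D3:**
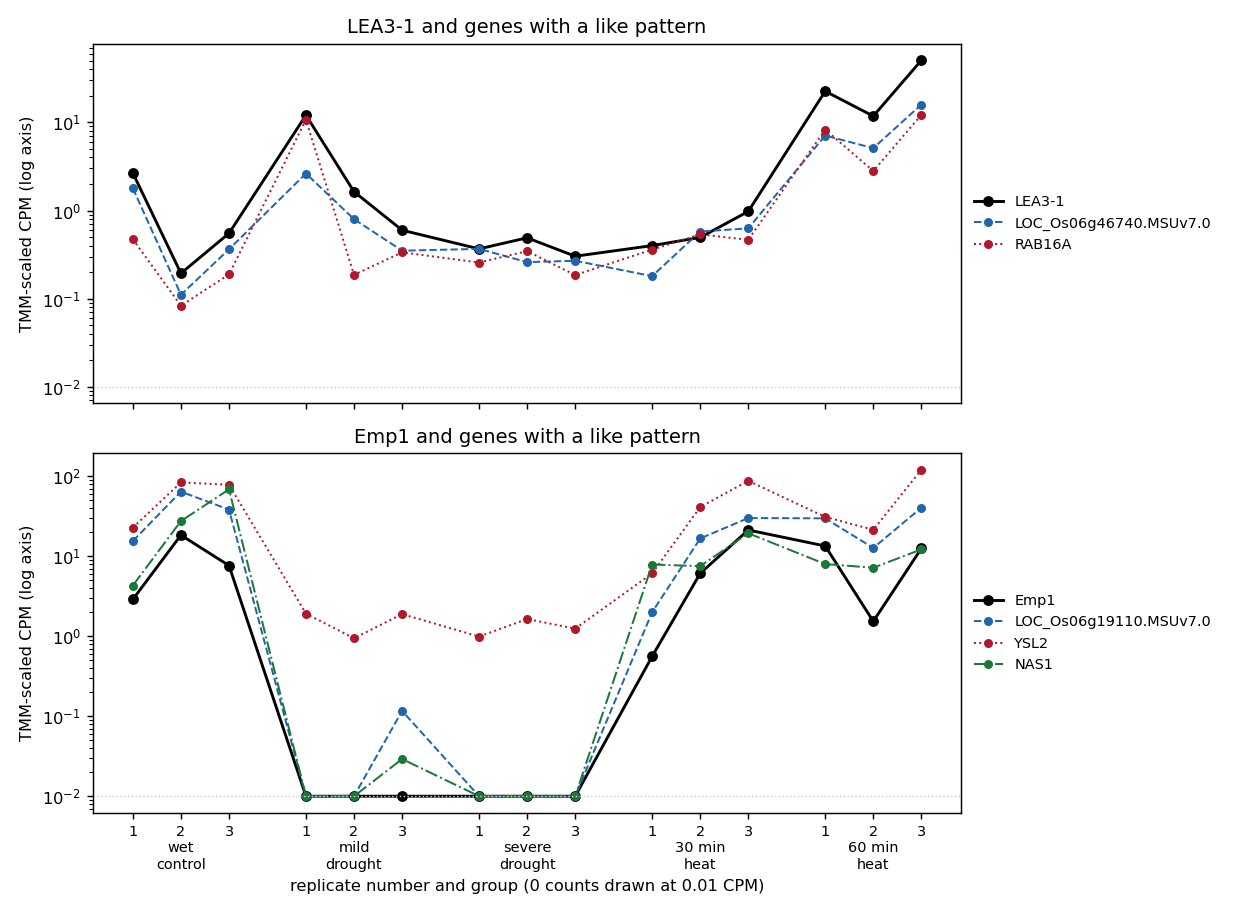
TMM-scaled CPM on a log axis in each of the 15 libraries, by group and replicate number, for LEA3-1 with LOC_Os06g46740.MSUv7.0 and RAB16A (top) and for Emp1 with LOC_Os06g19110.MSUv7.0, YSL2 and NAS1 (bottom). Lines only join the points of a gene, and 0 counts are drawn at 0.01 CPM; LEA3-1 and RAB16A share the high mild drought replicate 1, and Emp1 is at 0 counts in the 6 drought libraries while YSL2 stays near 1 to 2 CPM.

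Because iron genes were among those most like Emp1 and LEA3-2, a list of 8 iron uptake genes and IDEF1 was read beside them, chosen after those names were seen. YSL2, NAS1 and IRT2 had been picked for following Emp1 or LEA3-2 and are left out of the counts. Of the other 6 genes, 3 fell and 0 rose in severe drought, where 1.05% of all genes fell, and 2 fell and 0 rose in mild drought, where 0.528% fell. NAS2, whose reads may be shared with its neighbour NAS1, is among those called lower at both levels. These counts are therefore not free of that choice. The median log2 fold change of the 6 genes was -5.02 in severe and -2.76 in mild drought, against -0.022 and -0.0023 over all genes tested. At 30 min of heat 0 of the 6 passed in either direction, and at 60 min 4 fell and 0 rose, where 15.8% of all genes fell, among them IDEF1 (-0.60 ± 0.18, adjusted p = 0.0217, edgeR). IDEF1 itself averaged 31.4 ± 2.41 CPM in severe and 31.3 ± 5.09 CPM in mild drought, against 42.5 ± 10.5 CPM in the wet control (SD, n = 3 each), and did not pass the threshold in drought (adjusted p = 0.206 and 0.174, edgeR). The part of the iron genes in the levels of Emp1 and LEA3-2 was not tested.

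**Figure D4:**
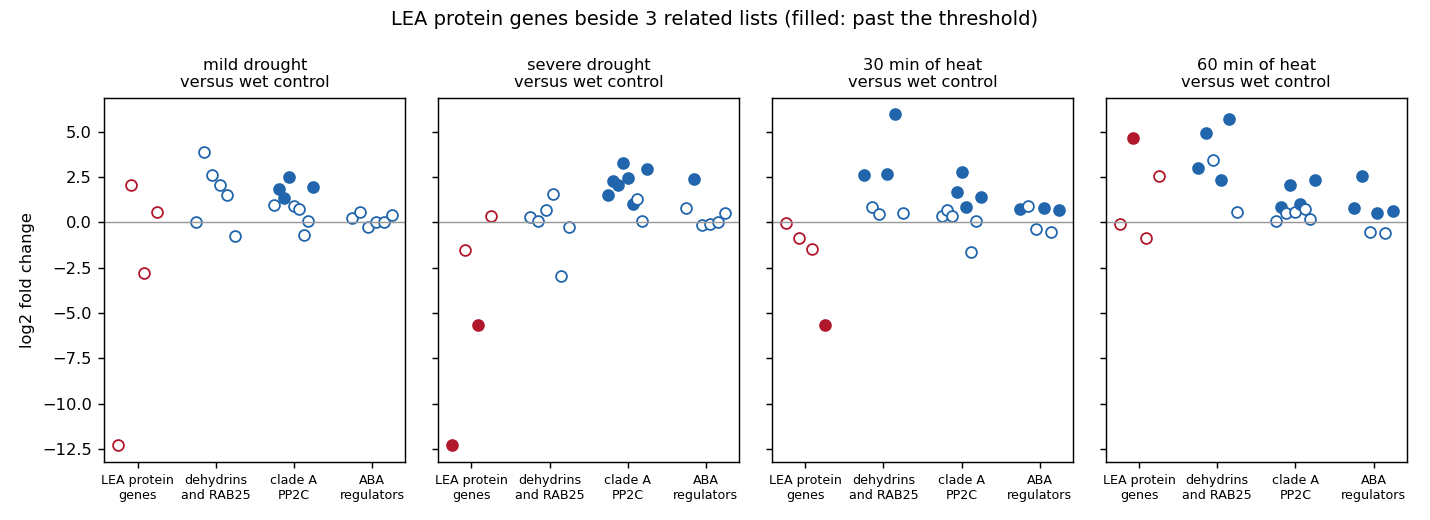
Log2 fold changes of the LEA protein genes (red) beside dehydrin genes with RAB25, clade A PP2C genes and ABA regulators (blue) in 4 comparisons with the wet control, 1 point per gene, filled where past the threshold. The lowest red point is Emp1 in each drought panel and WSI18 at 30 min, fitted values that depend on the small count added to 0. In severe drought the PP2C points all lie above 0 (the lowest, PP2C53, at 0.070) while Emp1 and LEA3-2 lie under it.

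Dehydrins, the group 2 LEA proteins, were read beside the 4 genes, in a list that also held other LEA-type genes. Of 13 genes listed, 6 had names that could be checked (RAB16A to RAB16D, LIP9 and RAB25, an ABA-responsive gene), and 0 of these passed the threshold in severe or mild drought, with medians of 0.19 and 1.77 log2. After 30 min of heat 3 rose and 0 fell, where 19.3% of all genes rose, and after 60 min 4 rose and 0 fell, where 16.2% rose. LIP9 rose to 111 ± 4.55 CPM after 30 min and 141 ± 21.2 CPM after 60 min, against 17.8 ± 3.38 CPM in the wet control (log2 fold changes 2.64 ± 0.24 and 2.99 ± 0.25, adjusted p = 2.15e-06 and 1.64e-06, edgeR). RAB16D rose by 5.95 ± 0.67 at 30 min and 5.72 ± 0.67 at 60 min. RAB16A rose at 60 min against the wet control (4.95 ± 1.31, adjusted p = 0.0122, edgeR) and at 60 against 30 min (4.09 ± 1.26, adjusted p = 0.0333, edgeR), as LEA3-1 did. Between the heat times it was the 1 of the 6 that rose, and 0 fell, where 10.4% of all genes rose. RAB16A had been named for following LEA3-1 over these same libraries. Its rise beside LEA3-1, and its place among the 4 that rose at 60 min, are not free of that choice. RAB16A to RAB16D are neighbouring, similar genes, and reads may be shared among them. The other LEA-type loci of the list had no checked name, and their levels are not described here.

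Several clade A PP2C genes rose in the drought groups in which Emp1 and LEA3-2 were low. Of 9 clade A PP2C genes, which encode phosphatases that restrain ABA signalling, 7 rose and 0 fell in severe drought (median 2.05 log2), where 1.64% of all genes rose, and 4 rose and 0 fell in mild drought (median 0.95), where 0.909% rose. PP2C09 rose by 2.05 ± 0.20 in severe and 1.34 ± 0.19 in mild drought (adjusted p = 0.000755 and 0.00981, edgeR). At each heat time 4 of them rose and 0 fell, where 19.3% of all genes rose at 30 min and 16.2% at 60 min. The part of ABA in the levels of Emp1 and LEA3-2 was not tested.

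Of 11 listed ABA regulators known to act on LEA genes or ABA supply, 7 had names that could be checked, and 6 of these had enough counts to be tested. NCED3, the ABA synthesis enzyme, rose in severe drought (2.40 ± 0.46, adjusted p = 0.0163, edgeR) and was the 1 of 6 past the threshold there, where 1.64% of all genes rose, with 0 of 6 in mild drought. At 60 min of heat NCED3 rose by 2.55 ± 0.46 (adjusted p = 0.0012, edgeR), and the kinase gene SAPK8 and the bZIP genes TRAB1 and BZIP23 rose as well, 4 of 6 where 16.2% of all genes rose. SAPK8, TRAB1 and BZIP23 were the 3 of 6 that rose at 30 min, where 19.3% of all genes rose. TRAB1, the bZIP factor of the Emp1 promoter, had 13.9 ± 1.77 CPM in severe drought and 12.9 ± 0.774 CPM in mild drought, against 9.79 ± 1.08 CPM in the wet control (SD, n = 3 each), and did not pass the threshold in either (adjusted p = 0.104 and 0.164, edgeR). VP1 had 0 counts in severe drought, 5 counts in mild drought and 3 counts in the wet control over 3 libraries each, and 0 counts in both heat groups. The embryo and seed genes OLE18 and GLUA1 were at 1 to 7 counts in all over the 3 libraries of a group, apart from 8 counts of OLE18 at 60 min of heat, and GLUA2 averaged 2.82 ± 0.366 CPM under severe drought, against 2.11 ± 0.193 CPM in wet soil.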

How the data were processed

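Whole-shoot mRNA of 15 rice samples was read as a single table of read counts per gene, which the authors deposited without normalization. Stranded NEBNext libraries were built from RNeasy extracts, per the labels' protocols, and the tools named are Trimmomatic, HISAT2 and featureCounts, per the submitters' processing notes. Their versions, the genome build, the strand setting and the handling of reads with several matches are not stated in those notes, and reads of similar or overlapping genes may be shared. Titles gave each sample's group and number. No row lacked a gene name (0), and 1205 genes had no count.

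In R 4.3.3, edgeR 4.0.16 with filterByExpr (minimum count 10, minimum total 15), TMM factors and a robust quasi-likelihood fit of all 15 libraries with 1 mean per group gave log2 fold changes, their SE (size over the square root of F) and Benjamini-Hochberg adjusted p over 20462 genes, threshold 0.05, in 7 comparisons. The fit was tested on simulated counts. Alternatives were RLE factors, total counts, no filter, DESeq2 1.42.0, fits of only the groups in a comparison, the replicate number as a block and each library left out. Bounds set 3 counts over a group and hold for counting error only, because amplified reads are not separate molecules. Between libraries the chi-square per gene was at least 31.1 within groups and 32.1 across groups, so all 15 were used as separate libraries. Severe drought replicate 1 and mild drought replicate 3, among others, lay nearest to a library of the other drought group. A fit without both was added. Same-numbered libraries deviated together (correlation over 0.1 for all 3 pairs) for 1 of 10 pairs of groups, 60 and 30 min of heat (0.19 to 0.43); that pairing comes from these values alone.

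The genes and lists were chosen with earlier results of these data known. Named were the 4 genes, up to 3 called members of each list and the 5 genes most like each by Pearson correlation; regulators of Emp1 and marker genes are named for their roles. Of 64 listed loci 62 were in the table, and 36 of these had a symbol of the reference (assembly ASM3414082v1) on the same chromosome in the order of the locus numbers. The others were left out, among them all 6 ASR loci, except WSI18, kept under its working name (3 of the 4 genes had a checked name); 9 iron loci added later all had one. RAB16A was matched through the alias RAB21.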

Additional observations from a re-analysis of the deposited data

How the results depend on the processing

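The low Emp1 and LEA3-2 over both drought levels, and the high LEA3-1 and WSI18 at 60 against 30 min of heat, passed the threshold under all 6 alternatives and without each library in turn. So did LEA3-1 at 60 min against the wet control. In the fits of only the groups compared, Emp1 and WSI18 met the filter on low counts only through the group where they were counted. For these 2 genes that alternative is therefore no separate check. The replicate block left 1 of 4 genes called in severe drought (Emp1 lost, adjusted p = 0.081, edgeR) and 0 at 30 min of heat (WSI18, adjusted p = 0.0655); it changed no other call of these genes, and their 60 against 30 min calls held. With only the groups compared, 1 was called in severe drought and 0 at 30 min, where WSI18 no longer passed the filter. With severe drought replicate 1 and mild drought replicate 3 both left out, chosen after the data were seen, 1 was called in severe drought and 2 in mild drought, WSI18 between the droughts turned to 0.30, and over all genes 2292 were called in mild drought (820 higher, 1472 lower) and 107 between the droughts. DESeq2 called 2 in mild drought, and total counts alone 2 at 30 min. Without 1 library the number called was 0 to 1 in severe drought (0 without replicate 1 or 3), 0 to 1 in mild drought and 0 to 1 at 30 min.

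Uncalled directions turned in places. Emp1 at 60 against 30 min was 0.77 log2 with total counts, 0.78 with the replicate block and 0.067 with the 2 groups alone, and 0.27 at 60 min against wet with the block; LEA3-1 over both droughts was -0.028 with total counts. Without 1 library, Emp1 spanned -1.57 to 0.71 at 30 min, -0.50 to 0.74 at 60 min and -0.58 to 1.46 between them. LEA3-1 spanned -1.46 to 0.72 at 30 min, -2.07 to 0.068 in severe, -0.024 to 3.68 in mild and -0.79 to 1.87 over both droughts, and WSI18 -0.14 to 1.11 in severe drought and -0.76 to 0.30 between the droughts. The cause was not tested.

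Counts over all genes moved more. Total counts gave 13955 at 30 min (1480 higher, 12475 lower, against 3946 and 4007) and 10746 between heat times (10067 higher, 679 lower, against 2121 and 2850). For both droughts the block gave 874, DESeq2 3207 and the compared groups alone 240, against 1395. For mild drought DESeq2 gave 2284 and the 2 groups alone 0, against 294; for severe drought 1811 and 32, against 550; between the droughts DESeq2 gave 44, against 0. Total counts gave 200 higher and 257 lower in severe drought (335 and 215 with TMM), 99 and 123 in mild drought (186 and 108), 367 and 1062 over both (618 and 777) and 2582 and 3813 at 60 min (3311 and 3235). Without 1 library the counts were 215 to 617 in severe drought, 30 to 1302 in mild drought, 543 to 2654 over both, 0 to 4 between the droughts (4 without mild drought replicate 2) and 2973 to 3777 between heat times. They moved by over 1.5 times without severe drought replicate 1, 2 or 3 or wet control replicate 1 in severe drought, without any of the 6 libraries in mild drought, without severe or mild drought replicate 1 or 3 or any wet control library over both, and without 30 min replicate 2 or 60 min replicate 2 or 3 between heat times. WSI18 rests on 0 to 76 counts per library.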
